A study of Homo sapiens with 6 samples.

Results

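YAP1, its paralogue WWTR1, the 4 TEAD transcription factors and 4 widely used YAP/TEAD target genes were followed in an established line of human embryonic stem cells, KhES-1, kept in 2 culture media. The 10 genes, of 23346 rows in the expression table, were YAP1, WWTR1, TEAD1, TEAD2, TEAD3, TEAD4, CTGF, CYR61, AMOTL2 and ANKRD1. They were chosen by name as one pathway, with their levels in these libraries already known, so their levels and differences are given as a description without a test. All 10 had a row and all 10 reached the filter on low values (0.5 RPKM or more on average across the 5 libraries). RPKM is the number of reads scaled by gene length and by library depth.

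Cells were grown either in AKIT medium (3 libraries) or in the control medium Essential 8 (E8, 2 libraries used here), both on dishes coated with laminin fragments (0.5 µg per square cm). E8 contains FGF2 and TGF-beta, while AKIT is known to replace them with small molecules that inhibit GSK3, DYRK kinases and calcineurin. The remaining E8 library of the series has no values in the expression table and was not analysed here. KhES-1 is a single line, and the labels do not say whether the replicates came from different cultures. Each p-value therefore reflects only how these libraries vary, which may be technical.

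YAP1 and WWTR1 (also called TAZ) are coactivators without a DNA-binding domain of their own. They enter the nucleus and bind TEAD factors when the Hippo kinase cascade, MST kinases (STK3 and STK4) upstream of LATS1 and LATS2, does not phosphorylate them. CTGF and CYR61, secreted matricellular proteins of the CCN family, AMOTL2, a junction protein that holds YAP back, and ANKRD1, an ankyrin repeat protein best known from muscle, are standard readouts of TEAD-driven transcription. In pluripotent stem cells YAP is known to respond to cell density, adhesion and the actin cytoskeleton.

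TEAD factors bind the sequence GGAATG, read on either strand. Promoter windows (250 bases before to 50 after an annotated start, RefSeq, GRCh38.p14) were found for 7 of the 10 genes, in 10 windows, and not for TEAD1, TEAD4 and CYR61. The windows of CTGF, AMOTL2 and ANKRD1, the target genes found there, are shown up to the start, 5′ to 3′ on the gene's strand, with each match in capitals. They lie at chr6:131951373-131951622, chr3:134374448-134374697 (the second of 2 annotated starts) and chr10:90921088-90921337, each on the minus strand.
CTGF: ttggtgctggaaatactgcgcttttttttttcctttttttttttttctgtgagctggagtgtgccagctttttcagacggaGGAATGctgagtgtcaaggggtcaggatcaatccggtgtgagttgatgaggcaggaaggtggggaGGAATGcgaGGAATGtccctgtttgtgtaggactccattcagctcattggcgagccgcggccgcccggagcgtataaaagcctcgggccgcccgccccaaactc
AMOTL2: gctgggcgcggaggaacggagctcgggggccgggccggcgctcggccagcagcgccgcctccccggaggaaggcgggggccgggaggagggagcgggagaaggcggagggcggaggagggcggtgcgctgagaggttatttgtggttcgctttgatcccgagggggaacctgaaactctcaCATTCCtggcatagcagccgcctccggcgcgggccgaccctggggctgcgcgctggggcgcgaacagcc
ANKRD1: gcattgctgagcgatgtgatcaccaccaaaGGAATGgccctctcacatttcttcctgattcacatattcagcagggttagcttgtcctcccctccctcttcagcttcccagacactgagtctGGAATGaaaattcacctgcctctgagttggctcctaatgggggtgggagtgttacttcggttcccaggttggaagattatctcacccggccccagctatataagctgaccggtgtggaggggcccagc

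The CTGF promoter held 3 matches, which began at -169, -104 and -95 from the start, all on the gene's strand. The ANKRD1 promoter held 2, at -220 and -128. The window of the second AMOTL2 start held 1 on the other strand, at -69. YAP1 itself had 1 match, at -162. The window of the first AMOTL2 start and the windows of WWTR1, TEAD2 and TEAD3 held none. Among all 35116 windows, 14.0% held at least 1 match and 0.128% held 3 or more; counted by gene, 4 of the 7 held a match, against 16.7% of all genes in the table. With the longer motif GGAATGT, a subset of the same matches, 3 of the 7 genes (YAP1, CTGF and AMOTL2) kept a match, against 4.25% of all genes (3.46% of all windows). These are matches of letters, and binding was not measured.

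**Figure D1:**
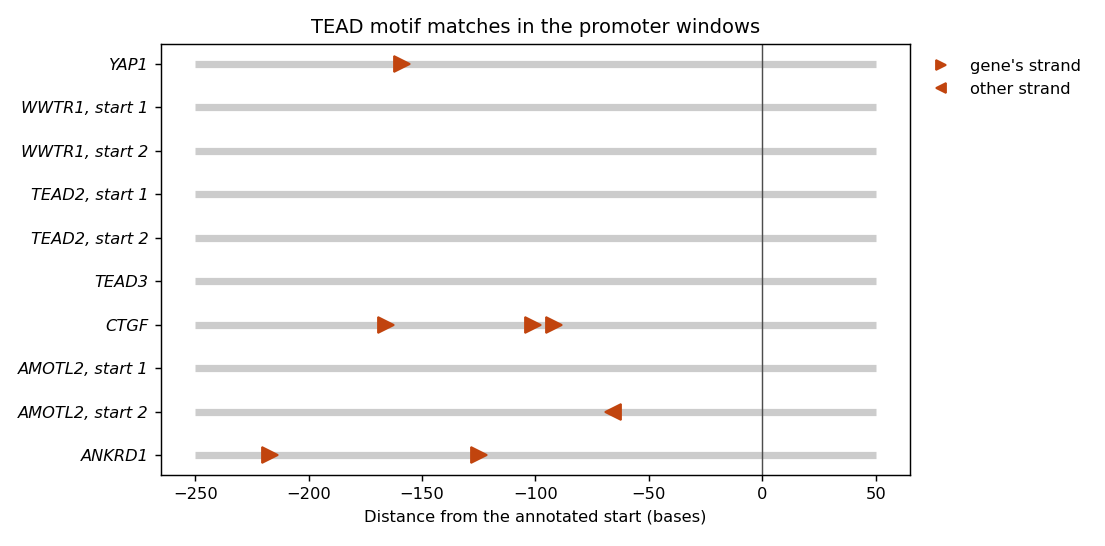
Matches of the TEAD motif in the 10 promoter windows of 7 genes; the x axis is the distance from the annotated start in bases, grey bars are the windows and arrowheads give the strand. CTGF carries 3 matches between -169 and -95, ANKRD1 has 2, and YAP1 and AMOTL2 (at its second start only) have 1 each.

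The cells of both media carried pluripotency markers: the 10 markers checked summed to 3700 to 3740 RPKM in AKIT and 4380 to 4450 in E8, and POU5F1 was between 296 and 400 RPKM in all 5 libraries. NANOG was at 7.60 to 12.9 RPKM in AKIT and 7.98 to 8.31 in E8, and SOX2 at 220 to 305 and 419 to 450. The values rested on 16242864 to 23263095 reads per library. AKIT replicate 2 stood apart from the other AKIT libraries: the chi-square per gene on recovered reads was 31.7 and 26.4 in its pairs, 16.6 between AKIT replicates 1 and 3 and 3.32 between the E8 libraries, where sampling of reads alone gives about 1. In these bulk samples fewer cells that express a gene and less RNA per cell cannot be told apart.

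The 3 target genes with high levels in E8, CTGF, CYR61 and AMOTL2, were all lower in every AKIT library, while YAP1 was 1.09 times as high in AKIT as in E8 and TEAD1 and TEAD2 overlapped between the media. WWTR1 and TEAD4 were higher in AKIT and TEAD3 was lower. ANKRD1 went the other way from the remaining targets. In all, 4 of the 10 genes had every AKIT library above both E8 libraries, as did 25.8% of the 14776 genes tested, 4 had every AKIT library below (28.6% of all), and 2 overlapped. By limma's moderated test over all genes (Benjamini-Hochberg adjusted p under 0.05), 8.22% of all genes were called higher in AKIT and 11.7% lower. Since the 10 genes were picked with this contrast known, no call is given for them and nothing is read from the shares above. Each log2 difference below is the AKIT mean less the E8 mean of log2(RPKM + 1), ± the standard error of the fit. The added 1 shrinks the differences of genes with low levels.

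**Figure D2:**
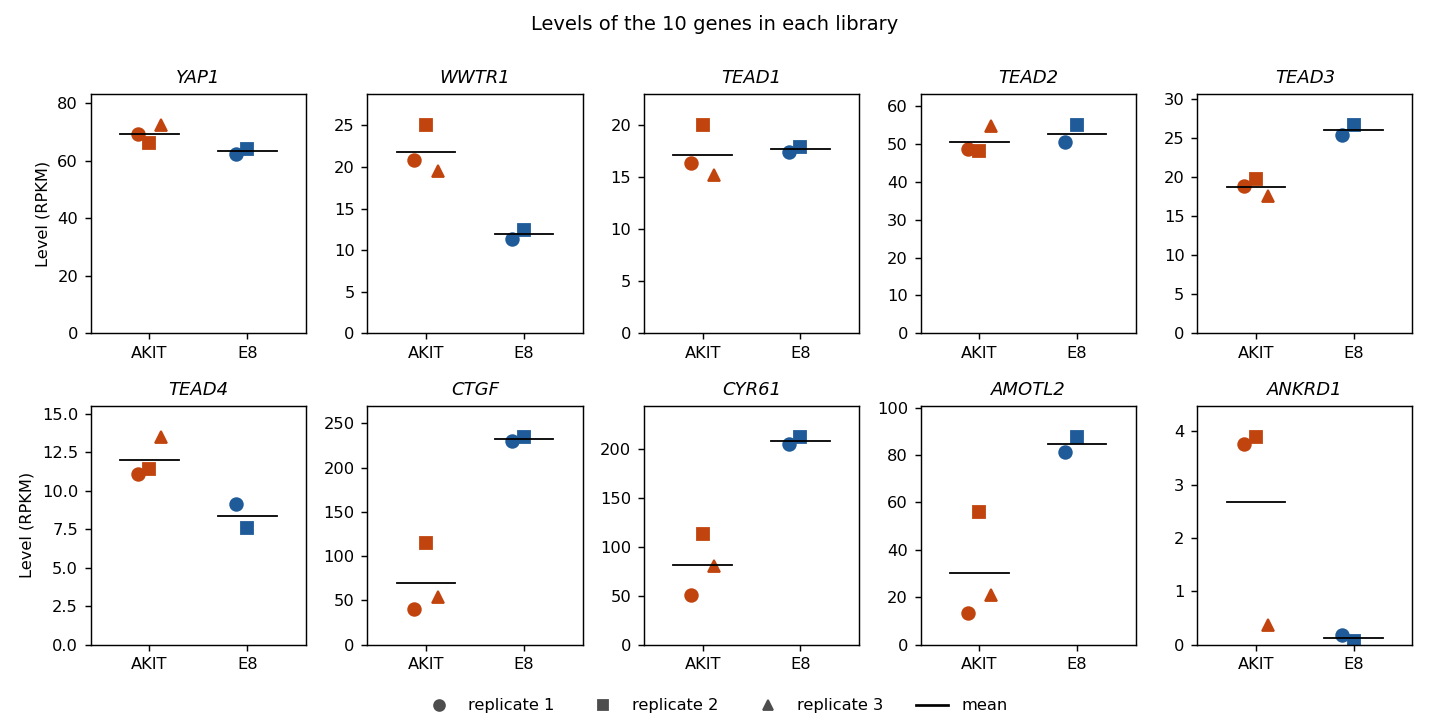
Levels in RPKM (y axis, linear from 0) of the 10 genes in each AKIT and E8 library; symbols give the replicate number and lines the mean of each medium. CTGF, CYR61 and AMOTL2 show AKIT replicate 2 as the highest of the AKIT libraries, at 115, 113 and 56.1 RPKM, and still below both E8 libraries.

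The 2 coactivators differed by unequal amounts. YAP1 stood at 69.1, 66.1 and 72.2 RPKM in the AKIT libraries (replicates 1 to 3, the order used throughout) and at 62.4 and 64.0 in E8 replicates 1 and 2. The libraries of the media did not overlap, but the means, 69.1 ± 3.05 (SD, n = 3) and 63.2 ± 1.12 (n = 2), were apart by a log2 difference of only 0.13 ± 0.09. YAP1 was among the more abundant transcripts throughout, at the 95.6th to 96.1st percentile of all rows. WWTR1 was at 20.9, 25.0 and 19.5 RPKM in AKIT and 11.3 and 12.4 in E8, without overlap. Its mean was 1.84 times as high in AKIT (21.8 ± 2.86 against 11.9 ± 0.809 RPKM, log2 difference 0.82 ± 0.13). The antisense row WWTR1-AS1, whose reads cannot be separated from WWTR1 if counting ignored strand, was at most 0.638 RPKM in any library.

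The balance of the pair differed too. YAP1 made up 76.8%, 72.5% and 78.7% of the summed RPKM of YAP1 and WWTR1 in AKIT replicates 1, 2 and 3, against 84.7% and 83.7% in E8. The sum of both was 90.0 to 91.7 RPKM in AKIT and 73.7 to 76.4 in E8. YAP1 thus exceeded WWTR1 by 2.64 to 3.70 times in AKIT and by 5.14 to 5.52 times in E8, and it was the more abundant of the pair in all 5 libraries.

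Of the TEAD factors, which share a DNA-binding TEA domain, TEAD2 was the most abundant in every library. It stood at 48.7, 48.2 and 54.8 RPKM in AKIT and at 50.5 and 54.9 in E8, with overlapping groups (log2 difference -0.06 ± 0.10). TEAD1 also overlapped, at 16.4, 20.0 and 15.2 RPKM in AKIT and 17.4 and 17.9 in E8 (-0.05 ± 0.13), and its sign depended on the libraries used (0.03 without AKIT replicate 3). The 2 other factors differed in opposite directions. TEAD3 was at 18.9, 19.7 and 17.6 RPKM in AKIT, below 25.4 and 26.6 in E8 (-0.45 ± 0.10). TEAD4, a factor known for its role in trophectoderm, was at 11.1, 11.4 and 13.5 RPKM in AKIT, above 9.12 and 7.58 in E8 (0.48 ± 0.13). In E8 the order was TEAD2, TEAD3, TEAD1, TEAD4. In AKIT TEAD3 and TEAD1 overlapped (17.6 to 19.7 against 15.2 to 20.0 RPKM), and TEAD1 was above TEAD3 in replicate 2.

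Summed over the 4 factors the level was 98.5 ± 3.15 RPKM in AKIT (SD, n = 3) and 105.0 ± 3.23 in E8 (n = 2), with 95 to 101 RPKM in the AKIT libraries and 102 to 107 in those of E8. TEAD2 gave 51.3% ± 2.83 of that sum in AKIT and 50.3% ± 1.42 in E8. TEAD3 gave 19.0% ± 1.38 and 24.8% ± 0.0473, and TEAD4 12.2% ± 1.04 and 7.99% ± 1.29. The shares of TEAD3 and TEAD4 did not overlap between the libraries of the media. Those of TEAD1 (17.5% ± 2.60 and 16.9% ± 0.180) and TEAD2 did. The shares add up to the whole, so they are not separate results, and no test was made. Counted in reads rather than per length, the long TEAD1 transcript took the largest share, 44.6% in AKIT and 43.3% in E8.

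**Figure D3:**
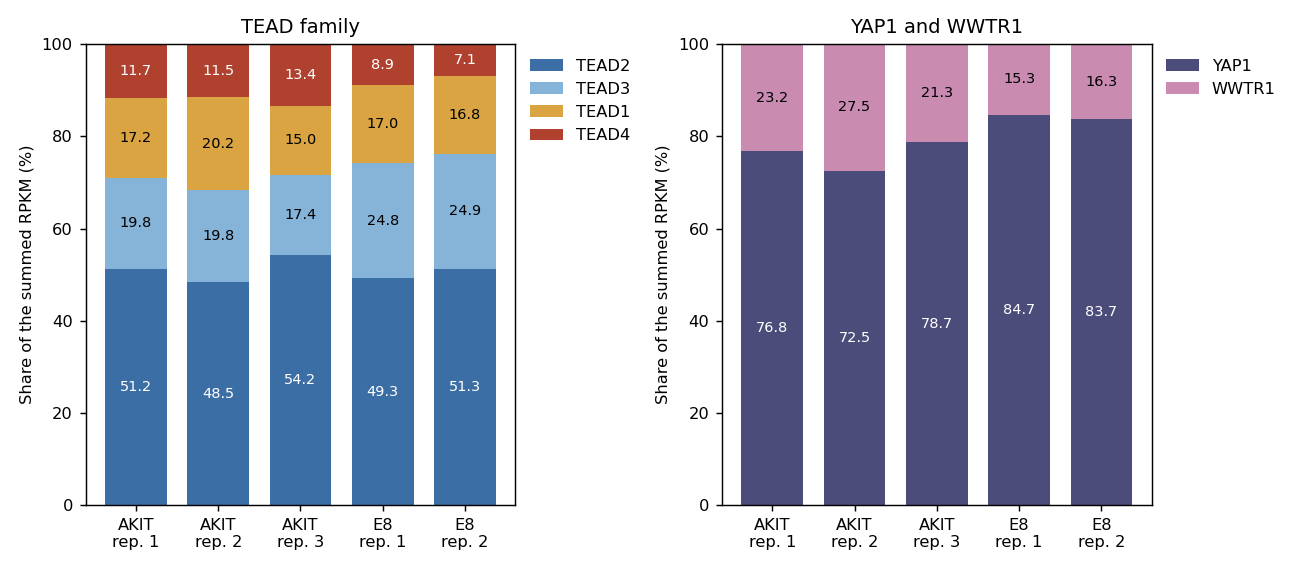
Share (y axis, % of summed RPKM) of each TEAD gene in the TEAD family (left) and of YAP1 and WWTR1 in their sum (right), 1 bar per library. TEAD3 gives 17.4% to 19.8% in AKIT and 24.8% to 24.9% in E8, and WWTR1 21.3% to 27.5% and 15.3% to 16.3%.

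CTGF had the largest difference of the secreted targets. Its AKIT libraries held 39.7, 115 and 54.0 RPKM and its E8 libraries 230 and 235. Its mean fell short of that in E8 by 3.34 times (69.6 ± 40 against 232 ± 3.52 RPKM, log2 difference -1.87 ± 0.39). Against the E8 mean, CTGF was 5.86 times lower in AKIT replicate 1, 2.02 times in replicate 2 and 4.31 times in replicate 3. These gaps among AKIT libraries exceed counting error: replicate 1 had 2163 reads and a 95% Poisson interval of 38.0 to 41.4 RPKM, and replicate 2 had 6269 reads and 112 to 118 RPKM.

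CYR61 showed the same order of libraries, at 51.2, 113 and 80.4 RPKM in AKIT and 206 and 213 in E8, without overlap. The means were 81.5 ± 30.8 and 209 ± 4.92 RPKM (-1.42 ± 0.29). The ratio of CTGF to CYR61, 1.12 and 1.10 in E8, was 0.775, 1.02 and 0.671 in AKIT, so that CTGF was lower than CYR61 in AKIT replicates 1 and 3. At their highest, in E8, CTGF and CYR61 reached the 99.4th and 99.3rd percentile of all rows.

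AMOTL2, which is both a target of YAP and a brake on it, was at 13.5, 56.1 and 21.1 RPKM in AKIT and 81.3 and 87.7 in E8. The groups did not overlap, but AKIT replicate 2 was 4.16 times as high as replicate 1. The mean was 30.2 ± 22.7 RPKM in AKIT and 84.5 ± 4.50 in E8 (-1.70 ± 0.50), and the E8 mean exceeded the AKIT libraries by 6.26, 1.5 and 4.01 times in turn. Without AKIT replicate 2 the difference was -2.25, and without AKIT replicate 1 it was -1.27.

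The spread between AKIT libraries was wide for CTGF, CYR61, AMOTL2 and ANKRD1, though not for every YAP/TEAD target listed below. On the log2(RPKM + 1) scale the SD over the AKIT libraries was 0.78 for CTGF, 0.56 for CYR61 and 1.01 for AMOTL2, larger than in 98.8%, 97.0% and 99.6% of the tested genes. For ANKRD1, at its low level, the SD was 1.05, larger than in 99.7% of the tested genes. For YAP1 and the TEAD genes it was 0.06 to 0.20, between the 12.0th and 65.7th percentile. In CTGF, CYR61 and AMOTL2 the AKIT library nearest to E8 was replicate 2, as it was in 40.5% of all tested genes and in 40.3% of those with all AKIT libraries below E8. Of the 6 coactivator and TEAD genes, YAP1 and TEAD3 were also nearest to E8 in replicate 2 and the other 4 were not.

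ANKRD1 was low in every library and higher in AKIT. Its level was 3.77 RPKM in AKIT replicate 1, 3.90 in replicate 2 and 0.366 in replicate 3, against 0.172 and 0.0624 in E8. Replicate 3 thus lay far below the other AKIT libraries, and its counting interval overlapped that of E8 replicate 1 (95% Poisson intervals 0.2 to 0.613 and 0.0632 to 0.375 RPKM, from 14 and 6 reads). Set against the 8 reads of both E8 libraries together, the level was 31.5 times as high in AKIT replicate 1 (95% exact interval 15.6 to 74.2), 32.6 times in replicate 2 (16.2 to 76.7) and 3.06 times in replicate 3 (1.20 to 8.41). These intervals cover counting error only, treat the pooled E8 libraries as a single sample, and are not a test of the media. ANKRD1 reached the filter on low values only through AKIT replicates 1 and 2, since its E8 mean was 0.117 RPKM. The fitted difference of 1.51 ± 0.53 depends on the pseudocount, because the gene is so low, and was 3.20 with a pseudocount of 0.1.

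Markers of mesenchyme differed in both directions, and their part in the ANKRD1 values was not tested. Of the 12 listed, 2 (LUM and COL3A1) were above E8 in every AKIT library, 5 (COL1A1, COL5A1, COL6A3, THY1 and PDGFRB) were below it and 5 overlapped. LUM had 5.81, 1.83 and 0.0244 RPKM in AKIT and 0 in both E8 libraries. COL3A1 had 5.63, 2.15 and 0.141 RPKM in AKIT and at most 0.0413 in E8, and DCN had 0.754, 0.0685 and 0 in AKIT and 0 in E8. COL1A1, by contrast, had 32.5, 41.8 and 38.7 RPKM in AKIT and 51.9 and 55.5 in E8, and PDGFRB had 1.43, 1.04 and 0.577 against 3.46 and 3.35. LUM, COL3A1 and DCN were highest in AKIT replicate 1, and ANKRD1 was about as high in replicate 2 as in replicate 1. LUM, COL3A1, DCN and ANKRD1 were all lowest, among the AKIT libraries, in replicate 3. The full list of 12 mesenchyme markers summed to 209 to 272 RPKM in AKIT and 351 to 353 in E8, most of it THY1, which embryonic stem cells express as well. Trophoblast and amnion markers (12 genes) summed to 33.4 to 56.6 RPKM in AKIT and 62.7 to 62.9 in E8. They differed in both directions. TFAP2B and CGA, both at 0 in E8, TFAP2C and HAND1 were above E8 in every AKIT library. GATA2, TFAP2A, KRT7, GABRP and IGFBP3 were below it, and CDX2, GATA3 and ISL1 overlapped. IGFBP3, also listed below as a YAP/TEAD target, gave 26.2 and 24.2 RPKM of the E8 sums. Endoderm markers (7 genes) summed to 9.60 to 20.7 RPKM in AKIT and 8.88 to 9.07 in E8. Of these, FOXA2, GATA6, GATA4 and CXCR4 were above E8 in every AKIT library, none was below it, and SOX17, CER1 and AFP overlapped. FOXA2 had 2.11, 3.75 and 2.53 RPKM in AKIT and 0.650 and 0.424 in E8. GATA6 was at most 0.898 RPKM and GATA4 at most 0.605. The 5 endothelial markers summed to 87.8 to 135 RPKM in AKIT and 32.4 to 33.7 in E8, of which KDR gave 85.5 to 133 RPKM in AKIT and 29.4 to 30.6 in E8, while PECAM1 was at most 0.0277 and VWF at most 0.0682. The part of these markers in the levels of CTGF, CYR61 and AMOTL2 was not tested either.

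**Figure D4:**
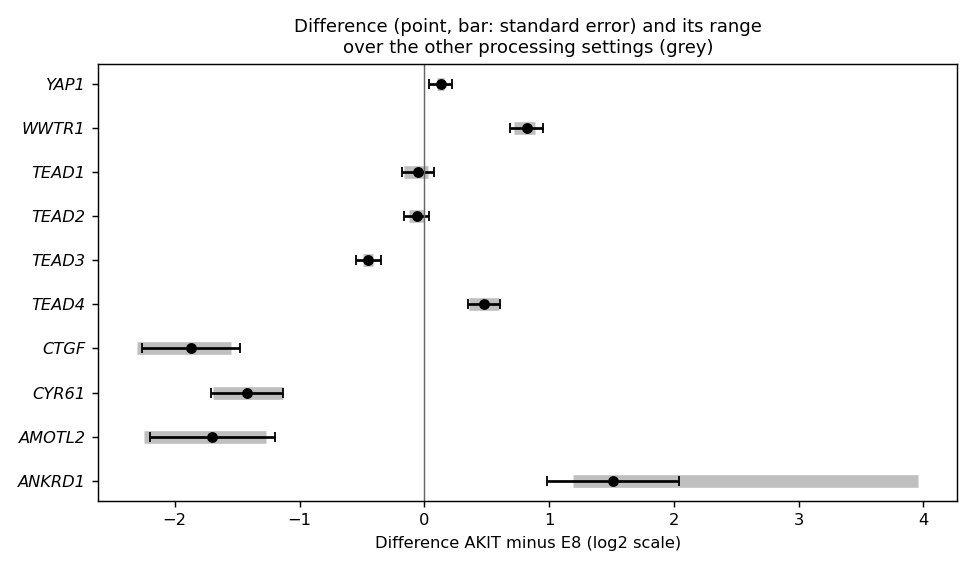
Difference AKIT minus E8 (x axis, log2 scale) of the 10 genes: points with bars are the difference ± standard error on log2(RPKM + 1), and grey bars span the values over the alternative settings and left-out libraries. CTGF spans -2.30 to -1.55, CYR61 -1.69 to -1.13 and AMOTL2 -2.25 to -1.27, all below 0, and ANKRD1 has the widest span, 1.19 to 3.96.

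By correlation of log2(RPKM + 1) over the 5 libraries, the tested genes most like CTGF were INCENP, a chromosomal passenger protein, SLFN5 and BEND3, with Pearson r of 0.9996, 0.9995 and 0.9992. INCENP was at 21.5, 25.4 and 22.5 RPKM in AKIT and 28.2 and 28.1 in E8, so a like order of libraries went with a much smaller difference. CYR61 was most like GADD45B, a stress-response gene (r = 0.9987), and C1orf21 (0.9985), and GADD45B was at 6.88, 10.7 and 8.85 RPKM in AKIT and 14.8 and 15.8 in E8. CYR61 ranked 120th and AMOTL2 150th in likeness to CTGF among all tested genes (r = 0.9887 and 0.9862). YAP1 was most like SESN1, PGAP2 and C16orf74 (0.9993, 0.9988 and 0.9987). With 5 libraries in 2 groups such values are high for many genes, and they share the same libraries and depth.

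The kinase cascade above YAP was tested in a list of 18 genes, none of them among the 10. Of these, 4 fell and 1 rose (22.2% and 5.56%, against 11.7% and 8.22% of all tested genes), and the median log2 difference was 0.05, against -0.01 over all genes. LATS2, the kinase that phosphorylates YAP and is itself a YAP target, had the largest change: it fell from 19.0 and 18.4 RPKM in E8 to 6.38, 10.9 and 6.69 in AKIT (log2 difference -1.17 ± 0.21, limma adjusted p = 0.0120). Its paralogue LATS1 was at 10.2, 12.7 and 9.52 RPKM in AKIT and 9.42 and 10.3 in E8 (0.11 ± 0.14, limma adjusted p = 0.604). STK3 (MST2) fell from 3.87 and 4.08 RPKM to 2.40, 2.69 and 2.10 (-0.55 ± 0.13, limma adjusted p = 0.0272), and STK4 (MST1) was at 13.4 to 15.8 RPKM in AKIT and 14.1 to 14.5 in E8. WWC3, of the KIBRA scaffold family, fell by 0.46 (± 0.10, limma adjusted p = 0.0219), beside its relative WWC2 and the rise of the kinase TAOK1, and these 2 are given although outside the naming rule, once their values were known. With AKIT replicate 1 left out 1 of the 18 fell and 0 rose, with AKIT replicate 3 left out 2 fell and 0 rose, and with AKIT replicate 2 left out 4 fell and 2 rose. Leaving out either E8 library ended all of these calls. The call of WWC3 ended without AKIT replicate 1, and that of STK3 without AKIT replicate 1 or 3 and with no filter on low values. Both also ended with a replicate block.

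Among 24 partners and junction regulators of YAP, 22 were tested, of which 4 fell and 2 rose (18.2% and 9.09%, median -0.02). Of all tested genes 11.7% fell and 8.22% rose, with a median of -0.01. VGLL1 and VGLL2, TEAD cofactors, stayed below the filter. AJUBA, a LIM protein that binds LATS kinases, fell from 37.4 and 37.2 RPKM in E8 to 10.5, 14.2 and 9.47 in AKIT (-1.65 ± 0.16, limma adjusted p = 0.00179), and this call held in all 15 alternatives, at adjusted p of 9.42e-05 to 0.0348. WTIP, another LIM protein of the AJUBA family, fell by 0.90 (± 0.14, limma adjusted p = 0.00713), and the third, LIMD1, was at 24.2 to 26.2 RPKM in AKIT and 22.7 to 23.5 in E8 (0.11 ± 0.09, limma adjusted p = 0.442). FAT4, a giant cadherin, rose from 3.63 and 3.87 to 8.66, 10.6 and 7.41 RPKM (1.05 ± 0.15, limma adjusted p = 0.00614). Of the relatives of AMOTL2, AMOTL1 was higher in AKIT, at 13.6 to 16.2 against 10.5 to 11 RPKM (0.41 ± 0.11, limma adjusted p = 0.0423), and AMOT was at 2.83 to 4.79 and 4.41 to 5.03 (-0.35 ± 0.20, limma adjusted p = 0.241). These 2 were named as paralogues after their values were seen, and the difference between paralogues was not tested. Leaving out either E8 library kept 1 fall, that of AJUBA, and 0 rises in this list. Leaving out AKIT replicate 1 or 3 left 1 rise.

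A further 22 published or commonly used YAP/TEAD targets were listed, of which 20 were tested. Of these 6 fell and 2 rose (30.0% and 10%, against 11.7% and 8.22% of all genes), and 12 did not pass; the median was -0.12. IGFBP3, an IGF-binding protein, fell from 26.2 and 24.2 RPKM in E8 to 13.6, 7.43 and 5.39 in AKIT (-1.50 ± 0.31, limma adjusted p = 0.0193). In IGFBP3 the AKIT library nearest to E8 was replicate 1, unlike in CTGF. NUAK2, an AMPK-related kinase, fell from 21.0 and 21.5 RPKM to 9.36, 10.9 and 7.88 (-1.11 ± 0.14, limma adjusted p = 0.00357), next to LATS2, which stands on this list too. CDC42EP3, ARHGEF17 and AXL also fell, and F3 (tissue factor) and TNS3 rose by 0.74 and 0.51, these 5 named after their values were seen. Among those not called were MYOF, CRIM1, ASAP1 and BIRC5, with log2 differences of -0.12, 0.23, 0.04 and -0.36. With E8 replicate 1 left out 1 of the 20 fell and with E8 replicate 2 left out 0 did, and 0 rose in either case. Without any 1 AKIT library 6 or 7 fell and 2 rose.

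CTGF and CYR61 are also targets of SRF and its actin-sensing cofactors, so 22 genes of that programme were tested. Of these 3 rose and 2 fell (13.6% and 9.09%, against 8.22% and 11.7% of all tested genes). The median was -0.03, against -0.01 over all genes. ACTG2, a smooth muscle actin, rose from 0.894 and 0.971 to 2.68, 2.52 and 3.33 RPKM (0.99 ± 0.14, limma adjusted p = 0.00571). Tropomyosin TPM1 fell from 169 and 163 to 84.5, 84.4 and 103 RPKM (-0.87 ± 0.12, limma adjusted p = 0.00443), and FHL2, a LIM cofactor, rose by 0.63 (± 0.12, limma adjusted p = 0.0140), a call that ended with a replicate block. SRF itself was at 45.9 to 47.9 RPKM in AKIT and 44.1 to 45.7 in E8 (0.06 ± 0.09, limma adjusted p = 0.657). Reads of ACTG2 may be shared with other actin genes of near-identical sequence, which leaves its level uncertain. Of the 22, 0 were called when either E8 library was left out. Leaving out AKIT replicate 1 gave 2 rises and 1 fall, and leaving out AKIT replicate 2 gave 5 rises and 3 falls.

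The relatives of the target genes were mostly silent. Of 6 genes, the CCN members NOV, WISP1, WISP2 and WISP3 and the ANKRD1 relatives ANKRD2 and ANKRD23, only NOV and ANKRD23 reached the filter. NOV was at 1.59, 2.59 and 1.96 RPKM in AKIT and 1.42 and 0.899 in E8 (0.50 ± 0.19, limma adjusted p = 0.106), and ANKRD23 at 2.52 to 3.36 and 2.15 to 2.55 (0.26 ± 0.15, limma adjusted p = 0.242). WISP1, WISP2, WISP3 and ANKRD2 did not exceed 0.489 RPKM in any library.

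**Figure D5:**
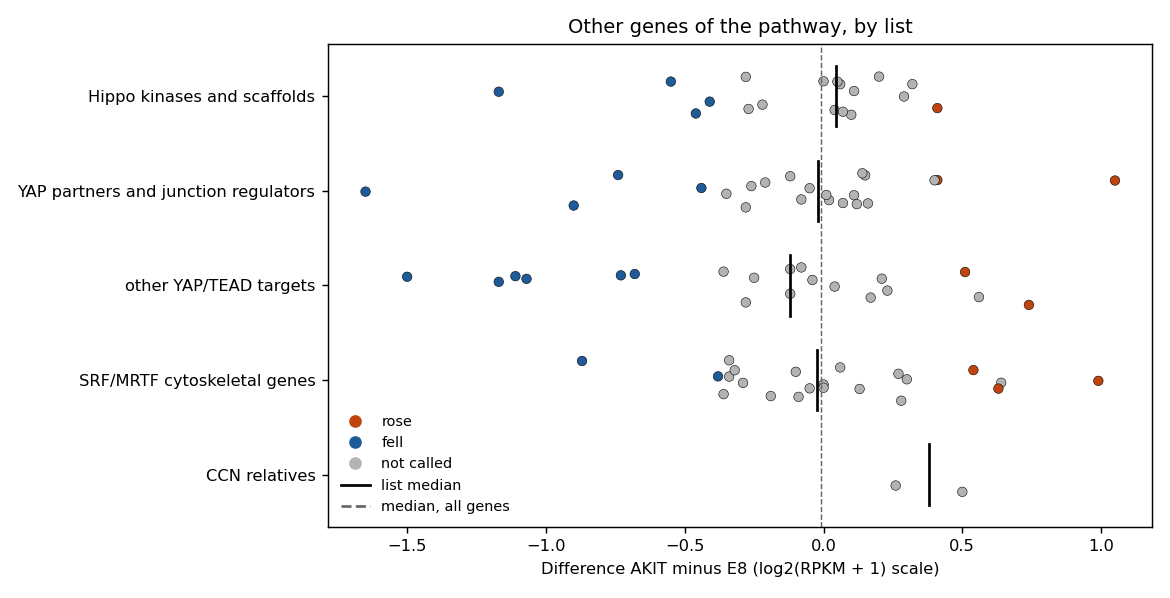
Difference AKIT minus E8 (x axis, log2(RPKM + 1) scale) of each tested gene in the 5 lists; red genes rose and blue genes fell past a limma adjusted p of 0.05, grey genes did not pass, solid lines are list medians and the dashed line is the median of all genes, -0.01. LATS2 and PTPN14 stand in 2 lists each. The targets list holds 6 fallen and 2 risen genes.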

How the data were processed

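Total RNA of KhES-1 cells was purified on silica columns for Illumina sequencing, as the labels' protocols state. Values in the deposited table are RPKM, which the authors scaled by gene length and library depth. Builds, per the submitters' processing notes, were hg19 and GRCh37. For the aligner, counter, annotation and strand setting the answer is: not given in the sources used here. Columns were matched to samples by title, and 5 of 6 samples had a column and were used. Thus 3 AKIT libraries were compared with 2 of E8.

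Genes averaging 0.5 RPKM or more were tested as log2(RPKM + 1) by limma 3.58.1 under R 4.3.3, its variance prior following intensity, two-sided, Benjamini-Hochberg adjusted over 14776 genes at 0.05, without covariates. Reads were recovered from the steps of the RPKM values (19891 of 19892 genes above 0 gave whole reads within 0.02). They gave depth and Poisson intervals. Per library, 1 read in a 1 kb gene is worth 0.043 to 0.062 RPKM. The fit was tested on simulated data in which all libraries had the same spread. Unequal spread, as seen here between the media, was not simulated. Promoter windows were matched by symbol in a RefSeq table, with CTGF and CYR61 looked up under their present symbols.

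The 10 genes, the 5 lists and the markers were chosen with earlier results of these data known. The list genes named are, per list, up to 3 called genes by size of difference, or the 2 with the smallest p where none passed, others being marked in the text. For CTGF, CYR61 and YAP1 the 3 genes with the highest correlation are named, except 1 for CYR61 that is not reported here. Alternatives were 2 other pseudocounts, 2 other filters, 2 scalings, no trend, array weights, a replicate block, voom on recovered reads and each library left out.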

Additional observations from a re-analysis of the deposited data

How the results depend on the processing

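Every AKIT minus E8 difference of the 10 genes kept its sign in all alternatives and left-out libraries except that of TEAD1. It was 0.03 without AKIT replicate 3 and as low as -0.16 without AKIT replicate 2. The replicate block gave the same differences as leaving out AKIT replicate 3, which has no analysed E8 library of its number. Where the media did not overlap, leaving out a library could not change the sign. The 2 other filters and the fit without a trend leave the difference itself unchanged. ANKRD1 ranged from 1.19 to 3.96 over 14 alternatives (it is below a filter of 2 RPKM). Over all genes, 2269 were called higher and 2740 lower with array weights, and 492 and 824 with the replicate block. The numbers do not pair the samples by any label, and deviations of same-numbered libraries from their group means had r = 0.00 and 0.03. With array weights 3 Hippo kinases and scaffolds, and 5 SRF genes, were called higher and 4 SRF genes lower. With the replicate block 0 kinases were called higher and 1 lower, 1 partner higher and 2 lower, 1 target higher, and 1 SRF gene lower. With no filter and without a trend 1 partner was called higher and 1 SRF gene lower, and with voom 5 SRF genes were called lower. Leaving out 1 library gave 142 to 2132 genes higher and 250 to 2619 lower. The ranges were 0 to 2 and 0 to 4 for the kinases, 0 to 2 and 1 to 5 for the partners, 0 to 2 and 0 to 7 for the targets, and 0 to 5 and 0 to 3 for SRF genes. The lowest counts came from fits with a single E8 library, which is assumed to vary like the others; these ended 9 (without E8 replicate 1) and 10 (without E8 replicate 2) of the 11 calls named from the lists. The block ended 3 of them (STK3, WWC3 and FHL2), and no filter ended 1 (STK3). TEAD shares in recovered reads depend on transcript length as well as on level. With 2 E8 libraries the E8 spread is poorly known.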

Other observations

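Some listed YAP/TEAD targets that did not pass the test differed widely among the AKIT libraries; they were picked after their values were seen. NT5E (CD73, an ectonucleotidase) had 2.15, 0.211 and 0.0507 RPKM in the AKIT libraries (replicates 1 to 3) and 0.445 and 0.378 in those of E8. TGFB2, a TGF-beta ligand, was at 2.12, 0.635 and 0.104 in AKIT and 0.190 and 0.217 in E8, and CCDC80, a matrix protein, at 2.78, 1.96 and 1.05 and 1.94 and 2.04. ACTA2, a smooth muscle actin of the SRF list, was at 3.76, 3.00 and 1.25 RPKM in AKIT and 1.16 and 1.33 in E8. In each of these genes AKIT replicate 1 was the highest of the AKIT libraries and replicate 3 the lowest, as for LUM, COL3A1 and DCN. Of the other mesenchyme markers, COL6A3, PDGFRB and PRRX1 had this order, and COL1A1, COL1A2, COL5A1, POSTN, THY1 and TWIST1 did not. The share of all genes with this order was not counted. CTGF, CYR61 and AMOTL2 were lowest in AKIT replicate 1 and highest in replicate 2.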
